A study of Mus musculus with 12 samples.

Results

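The non-additive contrast of polyIC and an antibody to PD-L1 was measured gene by gene in CD45-positive immune cells of mouse liver. For each gene it was the mean log2(FPKM + 1) of the combination minus that of polyIC, minus that of antiPDL1, plus that of control. FPKM is a fragment count scaled by transcript length and by library size. The contrast is 0 where the change with both agents equals the sum of both single changes on the log2 scale, and that sum is called the additive expectation here. A contrast above 0 means a level with both agents above this expectation, and a contrast below 0 a level under it. Of 24319 entries, 12000 reached an FPKM of 1 or more in at least 3 of the 12 libraries. Of these 12000, 22 entries were left out, 13 small RNAs and 9 other genes. In each of them a whole group was listed at 0 while every library of another group reached 5 or more. The contrast was tested for the remaining 11978 genes.

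All mice were C57BL/6 and had received human c-Myc and N-ras by hydrodynamic transfection of the liver on day 0, controls included, so no group without these oncogenes enters the contrast. Control mice were given PBS on days 14, 16, 18, 20 and 22 and 200 µg of IgG on days 17, 19 and 21. The polyIC group had polyIC at 4 mg/kg by the intraperitoneal route in place of PBS, with the same IgG. The antiPDL1 group had PBS and 200 µg of PD-L1 Ab in place of IgG, and the combination group had both agents on the same days. Livers were taken on day 24 by the protocol, while the time point label reads day 22, and CD45-positive cells were captured on magnetic beads. Each group had 3 libraries, numbered 0, 1 and 2, and values are given in that order. The labels do not say whether these came from separate mice, so the p-values measure only the spread between these libraries, which may be technical.

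PolyIC is a synthetic double-stranded RNA that is sensed by TLR3 in endosomes and by MDA5 in the cytosol, which leads to type I interferon production and to activation of natural killer (NK) cells and dendritic cells. PD-L1, on tumour and myeloid cells, engages the receptor PD-1 on T cells and restrains them, and an antibody to PD-L1 blocks that contact. The liver holds many NK cells, as well as Kupffer cells, its resident macrophages.

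FPKM totals ran from 476111 to 677535 per library. Read counts are not in the table, but the steps between low values gave relative depths whose group means were 0.75 for control, 0.546 for polyIC, 0.589 for antiPDL1 and 0.798 for the combination. Mean depth was thus lower in the 2 groups that enter the contrast with a minus sign. Single antiPDL1 libraries, at 0.466 to 0.75, overlapped with control (0.694 to 0.852) and the combination (0.63 to 1.0). Those of polyIC, at 0.527 to 0.561, lay below both. The part of depth in the results was not tested. Ptprc, which encodes CD45, was between 206 and 487 FPKM in every library. Across all genes, 3 libraries (control replicate 2, antiPDL1 replicate 0 and antiPDL1 replicate 2) correlated better with a different group than with their own group. Summed FPKM of the 28 hepatocyte markers ran from 2250.8 to 7308.9 in control, from 3103.2 to 4125.5 with polyIC, from 744.29 to 3791.5 with the antibody and from 354.68 to 643.75 with both, so RNA of hepatocytes was present in all libraries. The lowest control sum was that of replicate 2 and the highest antiPDL1 sum was also that of replicate 2.

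Few departures from additivity passed the test. By limma with Benjamini-Hochberg adjustment over all tested genes, 2 of 11978 genes (0.0167%) passed an adjusted p of 0.05, Orm2 below the expectation and the small RNA gene Mir760, which was listed at 0 in all libraries but those of control, above it. At an unadjusted p under 0.05 there were 288 genes (2.4%), 107 above the expectation (0.893%) and 181 below it (1.51%). The contrast itself was below 0 in 5456 genes (45.6%) and above 0 in 6522, with a median of 0.03 and a median size of 0.18 on the log2 scale. Its median standard error was 0.31, against 0.22 for a difference between 2 groups, because 4 group means enter it. The median 95% interval reached 0.67 log2 units to either side, a factor of 1.59, and for 7705 genes (64.3%) the whole interval lay within 1 log2 unit of 0. These intervals are not adjusted for the number of genes tested. With 3 libraries in a group, a departure had to be larger than its interval's half-width to pass the adjusted threshold.

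**Figure D1:**
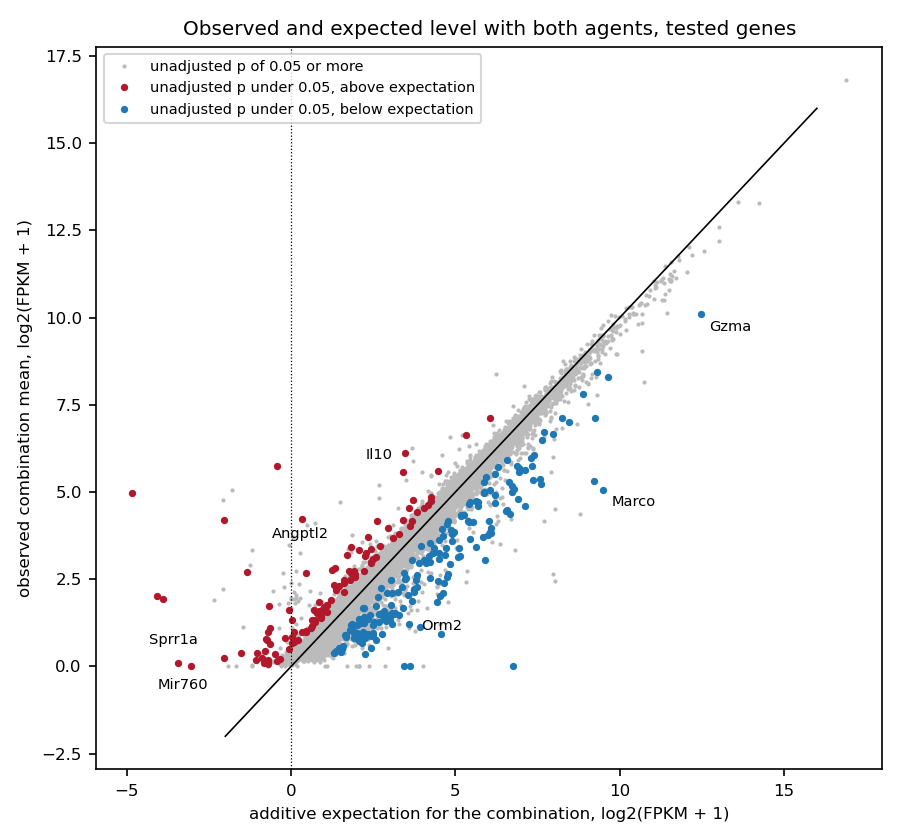
Mean level with both agents (vertical axis) against the additive expectation (horizontal axis), both in log2(FPKM + 1), for the 11978 tested genes. The solid line marks additivity, the dotted line an expectation of 0 FPKM, and red and blue points mark the 107 genes above and the 181 genes below expectation at an unadjusted p under 0.05. Most genes lie close to the line.

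The genes at an unadjusted p under 0.05 differed in which group had the highest mean. Of the 181 genes below expectation, 150 (82.9%) had their highest mean in the polyIC group, against 1613 of all 11978 tested genes (13.5%). In 74 of the 150 all 3 polyIC libraries lay above the other 9 libraries, which held for 139 of all tested genes (1.16%). Another 20 (11.0%) were highest with the antibody alone, a share near the 11.5% of all tested genes, 2 of them with all 3 of its libraries above the other 9 (0.142% of all tested genes). Of the 107 genes above expectation, 74 (69.2%) were highest in control, against 35.9% of all tested genes, 50 of them with all 3 control libraries above the other 9 (3.47% of all tested genes). Both single effects were below 0 in 91 of the 107 and in 4666 of all tested genes. The combination was highest in 33 (30.8%), beside 39.1% of all tested genes, and in 16 of these all 3 combination libraries lay above the other 9, as they did in 324 of all tested genes (2.7%). For 30 of the 107 the additive expectation itself was below 0 FPKM, a level that no measurement can reach, against 107 of all tested genes. Some genes reached 1 FPKM only in the 3 libraries of 1 group, so that the filter itself set that group apart. These were 4 of the 74, 9 of the 50 and 1 of the 16. Groups with extreme means are part of what a large contrast consists of, so these counts describe the genes and are no separate test. Differences between 2 groups, given below for single genes, use the same libraries as the contrast and are no separate support for it. Additivity taken on the linear FPKM scale gave the other sign for 0 of the 107 and 1 of the 181 genes, and for 1279 of all tested genes.

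Orm2 encodes an orosomucoid, a plasma protein of the acute phase response that hepatocytes and some myeloid cells make. It stood at 0.679, 0.703 and 0.329 FPKM in control and at 11.2, 9.19 and 6.16 with polyIC. With the antibody it was 1.35, 0.796 and 0.738, and with both agents 1.12, 1.71 and 1.25, where additivity would give 11.0. All 3 polyIC libraries lay far above the other 9, and the ranges of the antiPDL1 and combination libraries overlapped. The contrast was -2.35 (95% interval -3.01 to -1.68, limma adjusted p = 0.0445). Orm2 rose with polyIC alone by 2.62 log2 units (adjusted p = 0.000429, in a comparison where 2.46% of genes rose), and with both agents it was lower than with polyIC alone by a difference of -2.03 (adjusted p = 0.012, in a comparison where 1.09% of genes were lower). The call was lost under several alternatives, given in the closing section, while the contrast stayed between -2.56 and -2.18 with any 1 library left out.

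Since Orm2 is the protein-coding gene that passed, its promoter is shown, from 250 bases before to 50 bases after the start in RefSeq's GRCm38.p6 annotation, at chr4:63362199-63362498 on the plus strand. The deposited values rest on the older build mm9, whose coordinates are not used here. Capitals mark the match to the C/EBP motif TTGCNNAA, searched on both strands (TTNNGCAA on the other). C/EBP factors are known regulators of acute phase genes.
Orm2: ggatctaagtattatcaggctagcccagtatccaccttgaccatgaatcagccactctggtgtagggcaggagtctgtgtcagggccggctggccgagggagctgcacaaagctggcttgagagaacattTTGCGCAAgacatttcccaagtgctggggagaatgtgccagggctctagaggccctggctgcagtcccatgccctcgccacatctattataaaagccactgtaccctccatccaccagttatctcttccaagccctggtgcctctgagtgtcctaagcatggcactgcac
The match begins 120 bases before the start, at position -120. The motif occurs in 3547 of 32851 promoters of this length (10.8%), and the STAT motif TTCNNNGAA, found in 8.3% of them, has 0 matches in this window.

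Other acute phase genes lay below expectation too. Of 14 tested members, 12 had a contrast below 0 (45.6% of all genes) and 7 of these an unadjusted p under 0.05 (1.51%). Orm2 was the 1 gene that passed, and the list median was -1.17 beside 0.03 over all genes. The median change against control was 0.79 with polyIC, -0.25 with the antibody and -1.0 with both. Orm1, the neighbouring family member whose reads may be shared with Orm2, was 38.1, 25.9 and 12.8 FPKM in control, 58, 61.8 and 41.6 with polyIC, 17.6, 7.67 and 23.3 with the antibody and 3.93, 10.2 and 12.3 with both. Its contrast was -1.95 (-3.44 to -0.47, adjusted p = 0.999), and with both agents it was lower than with polyIC by a difference of -2.58 (adjusted p = 0.0374). The contrasts of Saa1 and Saa2, serum amyloid genes, were -2.52 and -2.59, and that of Hamp, the gene of the iron hormone hepcidin, was -2.84. Hepatocytes make most of these proteins, and the summed hepatocyte markers given above were lowest with both agents. Summed FPKM of the acute phase list was 249.32 to 347.26 in control and 455.34 to 717.79 with polyIC. It was 291.92 to 730.08 with the antibody and 401.36 to 613.46 with both. Members differed, since against control 2 of the 14 rose with both agents and 6 fell, beside 13.1% and 16.3% of all genes. The change with both agents was 4.21 for Saa3 and -1.61 for Hamp. Orm2 was lowest in control, with all 3 control libraries below the other 9. Of the 28 hepatocyte markers, 11 had their highest mean with polyIC, beside 13.5% of all tested genes. The part of hepatocyte RNA in the acute phase values was not tested. The number at an unadjusted p under 0.05 was 4 without combination replicate 0, with a median of -1.02.

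**Figure D2:**
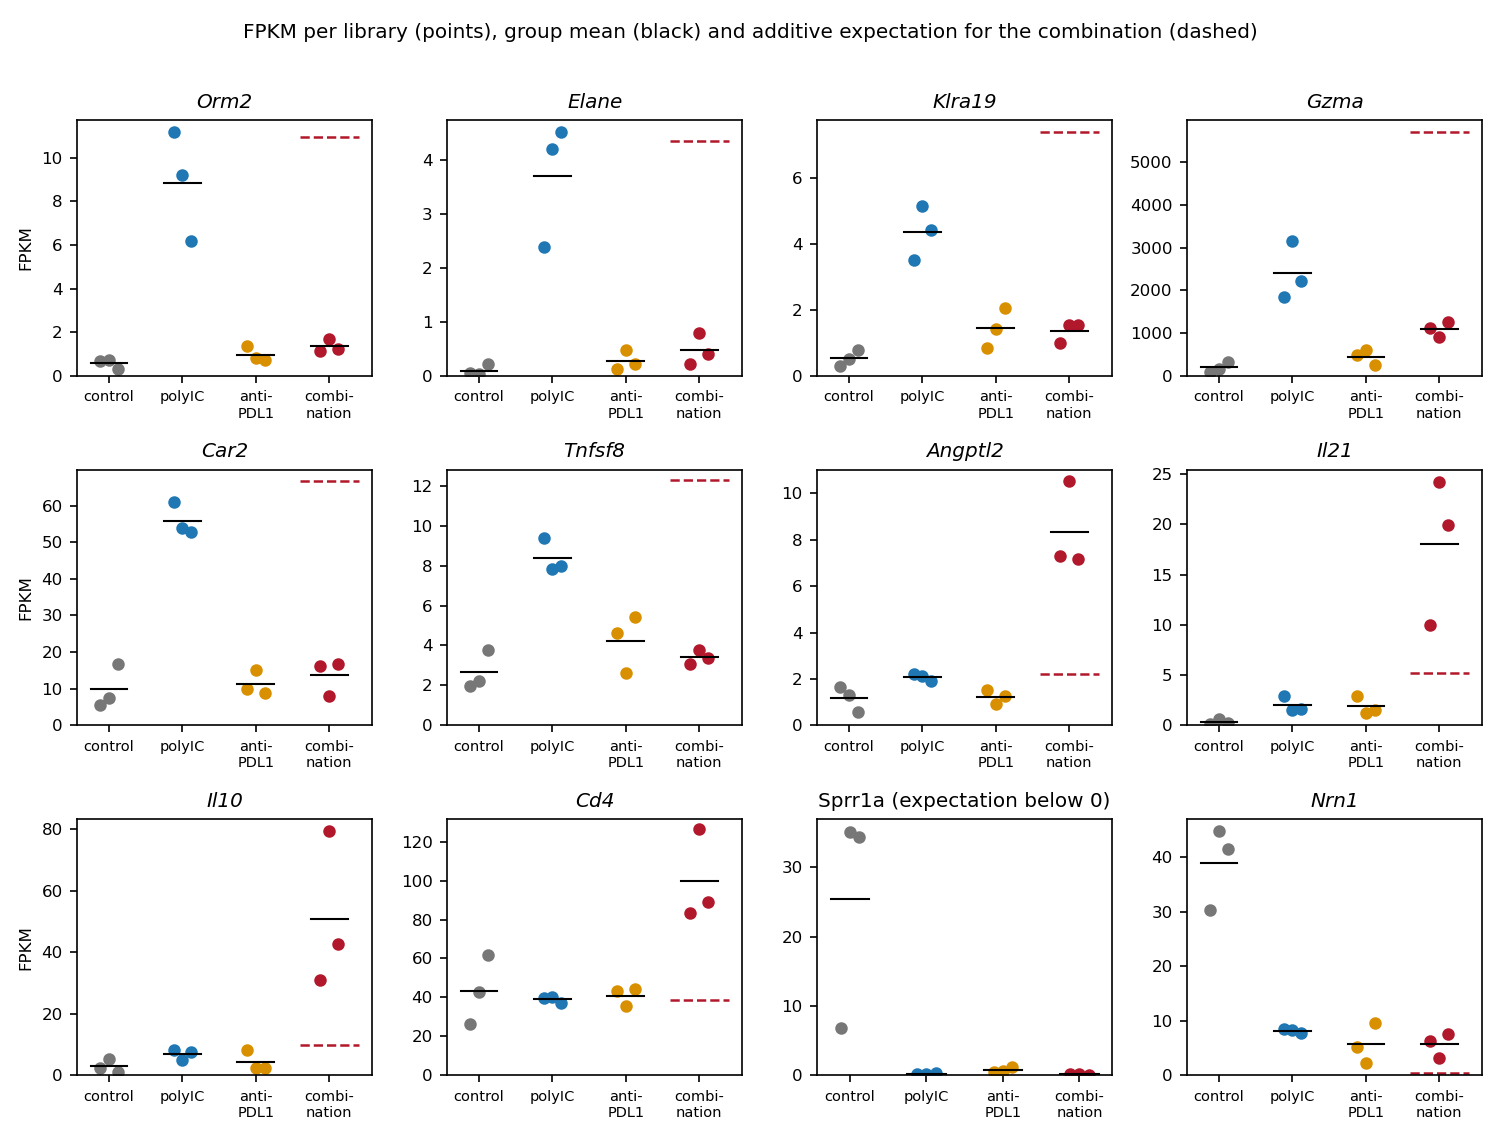
FPKM of 12 genes in each library (points, 3 per group), with the group mean (black line) and the additive expectation for the combination (dashed line). Orm2, Elane, Klra19, Gzma, Car2 and Tnfsf8 are highest with polyIC alone, Angptl2, Il21, Il10 and Cd4 are highest with both agents, and Sprr1a and Nrn1 are highest in control. For Sprr1a the expectation is below 0 and is not drawn.

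Among neutrophil genes, Elane and Mpo reached 1 FPKM only in the 3 polyIC libraries. They passed the filter on low values through that group alone, so its separation from the others is no finding. Elane, which encodes neutrophil elastase, was 0.0452, 0.0279 and 0.211 FPKM in control, 2.39, 4.21 and 4.51 with polyIC, 0.13, 0.48 and 0.22 with the antibody and 0.21, 0.796 and 0.402 with both, against an expectation of 4.34. The combination libraries overlapped with those of the antibody alone. The contrast of Elane was -1.88 (-2.56 to -1.21), with an unadjusted p of 6.75e-05 and a limma adjusted p of 0.202. Elane was above control with polyIC by 2.07 (adjusted p = 0.003) and lower with both agents than with polyIC by a difference of -1.66 (adjusted p = 0.03). Both differences rest on the polyIC values through which the gene passed the filter, so they are no support. Mpo, the gene of myeloperoxidase, was 1.82, 6.25 and 4.09 FPKM with polyIC and between 0.0164 and 0.399 in the other 9 libraries, a contrast of -1.89 (-2.77 to -1.01, adjusted p = 0.791). Fcnb, which encodes the lectin ficolin B, had a contrast of -1.40 (-2.10 to -0.70, adjusted p = 0.891).

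Prtn3, the gene of proteinase 3, which is stored in the same granules, departed less. It was 3.87, 6.75 and 5.64 FPKM with polyIC and 1.74, 4.9 and 3.34 with both, so these groups overlapped, and its contrast was -1.12 (-2.31 to 0.07). Among the 20 tested neutrophil markers, 16 lay below 0 (45.6% of all genes) and 7 of these had an unadjusted p under 0.05 (1.51%). Their median contrast was -0.84, with 0 past the adjusted threshold. With polyIC alone 10 of the 20 rose and 0 fell, against 2.46% and 1.17% of all genes, and with both agents 7 rose and 0 fell against control, beside 13.1% and 16.3% of all genes. In the test of both agents against polyIC alone, 2 of the 20 passed as lower, Elane and Mpo, beside 1.09% of all genes. Both passed the filter through their polyIC values, so this count is no finding. The mean was highest with polyIC in 16 of the 20, these 2 included, beside 13.5% of all genes. Without Elane and Mpo, 14 of 18 lay below 0, 5 had an unadjusted p under 0.05, the median was -0.80, and 8 rose with polyIC and 7 with both agents. The granule protein genes Ngp, Camp and Ltf had contrasts of -2.33, -2.37 and -2.20, and their changes against control with both agents were 2.48, 2.36 and 2.16, while S100a8, abundant in mature neutrophils, had -0.71 (-2.39 to 0.96). The markers Csf3r, Cxcr2 and Trem1 lay above 0, at 0.68, 0.60 and 0.37. The number at an unadjusted p under 0.05 was 4 without control replicate 0 or antiPDL1 replicate 1, and the median was -0.50 without combination replicate 0. In bulk RNA, fewer cells of a type and less RNA per cell cannot be told apart.

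NK cell genes showed the lowest median of the lists examined, -1.52. All 20 tested members had a contrast below 0 (45.6% of all genes) and 15 an unadjusted p under 0.05 (1.51% of all genes, below expectation). Past the adjusted threshold there were 0. The median change against control was 1.72 with polyIC, 0.08 with the antibody and 0.20 with both. In 18 of the 20 the polyIC mean was the highest (13.5% of all genes). In 11 all 3 polyIC libraries lay above the other 9 (1.16% of all genes). With polyIC 10 of the 20 rose against control, beside 2.46% of all genes. With both agents 2 of the 20 rose, a share near the 13.1% of all genes. In the test of both agents against polyIC alone, 1 of the 20 was lower and 0 were higher, beside 1.09% and 0.159% of all genes. The list's summed FPKM was 3057.8 to 4103.6 in control, 4366.5 to 5351.5 with polyIC, 3040 to 3980.8 with the antibody and 3277.5 to 3694.1 with both. With any 1 library left out the median stayed between -1.94 and -1.24, and it was -1.77, with 18 genes at an unadjusted p under 0.05, without control replicate 2 and antiPDL1 replicate 2 together.

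Among NK receptors, Klra19, of the Ly49 family that binds MHC class I, was 0.297, 0.508 and 0.771 FPKM in control, 3.51, 5.15 and 4.41 with polyIC, 0.85, 1.4 and 2.06 with the antibody and 0.986, 1.52 and 1.54 with both. The polyIC libraries lay above all others, and the single agents together would give 7.39. Its contrast was -1.84 (-2.50 to -1.19), with a limma adjusted p of 0.202. Klra19 rose with polyIC by 1.81 (adjusted p = 0.00336), also rose with both agents, by 0.63 (adjusted p = 0.0451), and was lower with both than with polyIC by a difference of -1.19 (adjusted p = 0.0374). Ly49 genes are close copies of each other, and so are those of the NKG2 group such as Klrc3 (contrast -1.52, -2.32 to -0.72), so how reads were divided among them is uncertain.

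Ncr1, which encodes the activating receptor NKp46 and has no such close copy, was 22.3, 29.5 and 42.8 FPKM in control, 73, 145 and 106 with polyIC, 12.3, 48.4 and 32.7 with the antibody and 19.5, 11.3 and 40.9 with both. The polyIC libraries were again above all others and the other groups overlapped. Its contrast was -2.09 (-3.70 to -0.48, limma adjusted p = 0.999). Klrb1c, the gene of NK1.1, had -1.5 (-2.83 to -0.17). Sh2d1b2, an adaptor of SLAM family receptors in NK cells, was 3.68, 8.61 and 4.97 FPKM with polyIC and at most 1.26 elsewhere, a contrast of -1.84 (-2.73 to -0.95). The list was not uniform. Tyrobp, an adaptor shared with myeloid cells, was at -0.18, and Il2rb, a cytokine receptor chain shared with T cells, at -0.47.

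Gzma, a granule protease of NK cells and cytotoxic T cells, was 91.9, 165 and 331 FPKM in control, 1840.5, 3147 and 2226 with polyIC, 494, 610 and 243 with the antibody and 1112, 920.4 and 1261 with both. The combination libraries lay between those of the 2 single agents without overlap, and far under the expectation of 5704. The contrast was -2.39 (-3.78 to -0.99), with an unadjusted p of 0.00305 and a limma adjusted p of 0.999. Gzma rose both with polyIC (3.77, adjusted p = 0.00353) and with both agents (2.66, adjusted p = 0.00316).

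Markers of cytotoxic CD8 T cells, several of which NK cells also express, had another profile. Of the 24 tested, 15 rose with polyIC (2.46% of all genes did) and 0 with the antibody (where 0.00835% of all genes rose), and 19 rose with both agents, beside 13.1% of all genes. Their median change was 2.03, 0.94 and 2.55, which left a median contrast of -0.93. Of the 24, 20 lay below 0 (45.6% of all genes) and 6 of these had an unadjusted p under 0.05 (1.51%). Past the adjusted threshold there were 0. Cd8a, the CD8 coreceptor, was 12.1, 17.2 and 34.3 FPKM in control, 218, 131 and 150 with polyIC, 177, 37.8 and 38.4 with the antibody and 200, 183 and 168 with both. The combination libraries lay inside or near the polyIC range, and 1 antiPDL1 library, replicate 0, reached it as well. The contrast of Cd8a was -1.5 (-3.15 to 0.15, limma adjusted p = 0.999).

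Gzmb and Gzmk, which encode other granzymes, had contrasts of -1.30 (-2.92 to 0.32) and -1.66 (-3.92 to 0.60), and Pdcd1, the gene of PD-1, had -1.53 (-3.86 to 0.80). For these 3 genes the combination had the highest mean, and on the linear FPKM scale the contrast was above 0, at 252, 189 and 41.8 FPKM, so their departure changes sign with the scale. Prf1, the gene of perforin, and Ctla4, an inhibitory receptor gene, did the same (-0.19 and -0.50 on the log2 scale, 27.1 and 48.4 FPKM on the linear scale). Klrg1, a receptor of terminal effector cells, kept its sign, with 45.4, 47.9 and 45 FPKM with polyIC against 31.1, 28.7 and 41 with both and a contrast of -1.69 (-2.59 to -0.78). The antiPDL1 libraries differed widely in these genes (Gzmk 329, 32.3 and 40.6 FPKM). Without antiPDL1 replicate 0 the contrast was -0.42 for Pdcd1, -0.61 for Gzmk, -0.79 for Gzmb and -0.77 for Cd8a, and the list median was -0.44. Without control replicate 0 the list median was -0.55, and without control replicate 2 it was -1.27 with 11 genes at an unadjusted p under 0.05.

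Genes of other roles were also highest with polyIC alone. Car2, which encodes carbonic anhydrase 2, was 5.57, 7.51 and 16.8 FPKM in control, 61, 53.8 and 52.7 with polyIC, 9.85, 15 and 8.74 with the antibody and 16.3, 8.1 and 16.7 with both. The polyIC libraries stood apart from all others, and the contrast was -2.27 (-3.39 to -1.15, limma adjusted p = 0.865). Tnfsf8, the gene of CD30 ligand, was 9.36, 7.81 and 8 FPKM with polyIC and 3.09, 3.77 and 3.35 with both, a contrast of -1.59 (-2.30 to -0.88). Htra1, a secreted serine protease gene, had -1.32 (-1.94 to -0.70). All 3 genes rose with polyIC (adjusted p = 0.00856, 0.0123 and 0.00428) and were lower with both agents than with polyIC (adjusted p = 0.0374, 0.0467 and 0.0367). These differences rest on the same polyIC libraries as the contrasts by which the genes were named, so they are no separate support.

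**Figure D3:**
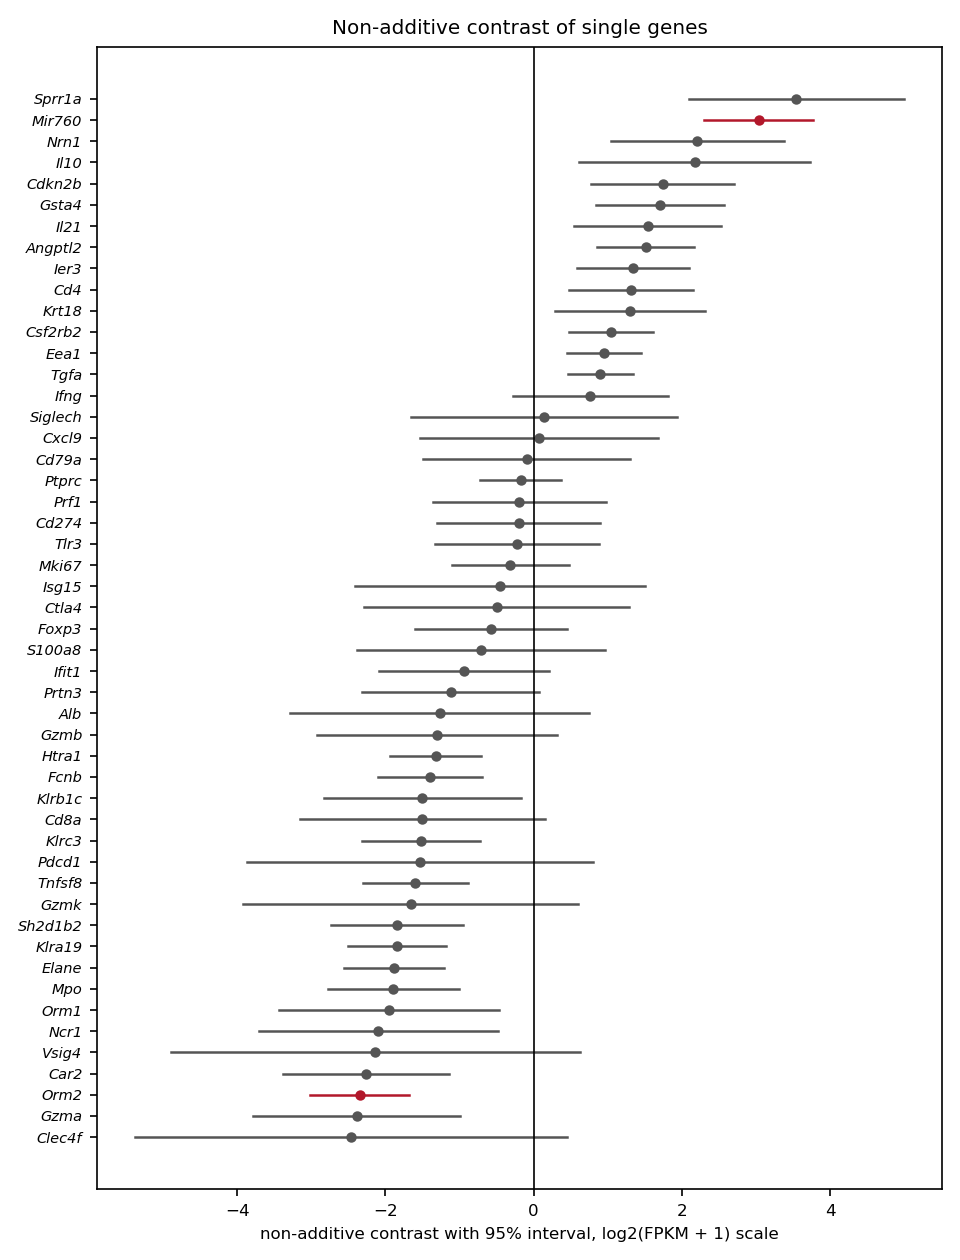
Non-additive contrast (point) with its 95% interval (line) on the log2(FPKM + 1) scale for single genes, ordered by value. Red marks the 2 genes past the adjusted threshold, Mir760 at 3.04 and Orm2 at -2.35, and the vertical line marks additivity.

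A smaller set of genes, several of them immune genes, lay above the additive expectation with both agents. Those described here did not pass the adjusted threshold for the contrast. Il21, a cytokine of helper T cells, was 0.163, 0.668 and 0.285 FPKM in control, 2.95, 1.52 and 1.64 with polyIC, 2.88, 1.27 and 1.53 with the antibody and 9.96, 24.2 and 19.9 with both, against an expectation of 5.17. Every combination library was above every other library. Il21 was higher with both agents than with polyIC by 2.6 (limma adjusted p = 0.029, in a comparison where 0.159% of genes were higher) and than with the antibody by 2.67 (adjusted p = 0.0108, where 0.1% were higher). The contrast was 1.54 (0.55 to 2.53), with an unadjusted p of 0.00567 and an adjusted p of 0.999.

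Il10, which encodes an anti-inflammatory cytokine, was 2.17, 5.29 and 0.924 FPKM in control, 8.05, 4.94 and 7.63 with polyIC, 8.24, 2.16 and 2.44 with the antibody and 30.9, 79.2 and 42.6 with both. The combination libraries did not overlap with any others, while the single agents overlapped with each other. The contrast was 2.17 (0.61 to 3.73, limma adjusted p = 0.999), and Il10 was higher with both agents than with polyIC by 2.64 (adjusted p = 0.0374) and than with the antibody by 3.37 (adjusted p = 0.0348). Il10 and Il21 were the 2 of 22 inflammatory and helper cytokine genes above expectation at an unadjusted p under 0.05 (0.893% of all genes). At that level 0 were below it (1.51%), and the list's median contrast was 0.07 (-0.24 to 0.26 with 1 library left out). Without antiPDL1 replicate 0 there were 4 above expectation.

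Cd4, the coreceptor gene of helper T cells that macrophages and dendritic cells of some types also express, was 26.1, 42.5 and 61.8 FPKM in control, 39.8, 40.2 and 36.9 with polyIC, 43.1, 35.3 and 44.2 with the antibody and 83.4, 127 and 89 with both. Neither agent alone separated from control, and the combination did. The contrast was 1.32 (0.48 to 2.15, limma adjusted p = 0.999), and Cd4 rose with both agents against control by 1.24 (adjusted p = 0.00769). The T cell list as a whole did not share this, with a median of -0.23 (-0.61 without control replicate 2 and 0.11 without antiPDL1 replicate 0) and 17 of 24 members below 0, and Foxp3, the factor of regulatory T cells, was at -0.58 (-1.61 to 0.45). Ifng, the interferon gamma gene, was 82.6, 151 and 135 FPKM with both agents and at most 37.8 elsewhere, and its interval included 0 (0.77, -0.28 to 1.82).

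Angptl2, which encodes a secreted angiopoietin-like protein, had the smallest unadjusted p (0.000327) of these genes. It was 1.64, 1.29 and 0.571 FPKM in control, 2.21, 2.14 and 1.9 with polyIC, 1.53, 0.93 and 1.25 with the antibody and 7.29, 10.5 and 7.19 with both. All combination libraries were above all others, and the other groups differed little from each other. The contrast was 1.51 (0.86 to 2.16, limma adjusted p = 0.653), and Angptl2 was higher with both agents than with polyIC (1.58, adjusted p = 0.03) or the antibody (2.05, adjusted p = 0.00914). Eea1, a gene of early endosomes, had 0.95 (0.45 to 1.45), and Socs3, a feedback inhibitor gene of cytokine signalling, had 1.19 (-0.20 to 2.58).

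Other genes above expectation were highest in control, and 30 of the 107 had an additive expectation below 0 FPKM. Sprr1a, a gene of the cornified envelope of epithelia, was 6.75, 35.2 and 34.4 FPKM in control, 0.12, 0.154 and 0.245 with polyIC, 0.384, 0.629 and 1.16 with the antibody and 0.124, 0.0785 and 0.0341 with both. It fell with each agent alone, by log2 changes of -4.20 (limma adjusted p = 0.003) and -3.66 (adjusted p = 0.0132, where 0.259% of genes fell), and with both by -4.32. The sum of the single falls lies below 0 FPKM, so its contrast of 3.54 (2.10 to 4.99, adjusted p = 0.496) could not have been 0. An expectation below 0 FPKM was also found for Tgfa, a ligand gene of the EGF receptor (contrast 0.90), which passed the filter through its control libraries alone, Gsta4, a glutathione transferase gene (1.70), Cdkn2b, which encodes a cell cycle inhibitor (1.74), and Mgl2, a lectin gene of dendritic cells (0.81). Mgl2 was lower with both agents than with the antibody alone, by a difference of -2.0 (adjusted p = 0.0423, in a comparison where 0.025% of genes were lower).

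Epithelial genes were among those highest in control. Of 12 tested oncofetal and epithelial markers, 5 were above expectation at an unadjusted p under 0.05 (0.893% of all genes) and 0 below (1.51%), with 0 past the adjusted threshold. These were Sprr1a, the keratin genes Krt18 (1.30, 0.29 to 2.31) and Krt8 (1.26), Tspan8 (1.89) and Tm4sf4 (1.47). With each agent alone 5 of the 12 fell, beside 1.17% of all genes with polyIC and 0.259% with the antibody, and with both 11 fell, beside 16.3%. In these comparisons 0 rose. Krt18 was 17.2, 45 and 33.8 FPKM in control, 4.63, 6.54 and 4.7 with polyIC, 3.09, 3.21 and 6.43 with the antibody and 1.28, 1.94 and 1.35 with both, so the combination was still the lowest. Its additive expectation was 0.0209 FPKM, next to the floor of 0, so its contrast could hardly have been below 0. The changes with polyIC and with the antibody were -2.05 and -2.17 for Krt8, -2.88 and -3.11 for Tspan8, and -2.78 and -3.30 for Tm4sf4. The floor limits how far such genes can lie below expectation, so the count of 5 against 0 is no support for a direction. The fetal liver genes Afp, H19, Igf2 and Gpc3 were on the other side of 0, between -0.55 and -0.04. Nrn1, the neuritin gene, had 30.4, 44.8 and 41.5 FPKM in control and between 2.26 and 9.49 in the other 9 libraries, a contrast of 2.21 (1.04 to 3.38).

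Mir760, the other gene past the threshold, was listed at 7.86, 10.9 and 4.21 FPKM in control and at 0 in the other 9 libraries. All its group differences from control are therefore the same value, -3.04, and the contrast is 3.04 (2.30 to 3.78, limma adjusted p = 0.0207). With 1 control value under 5, it escaped the rule that left out 22 entries listed at 0 in a whole group, and a listed 0 can be a failed estimate. It passed the filter on low values through the control libraries alone, and its contrast equals its mean control level, so this test gives no information on how the agents act together on the gene. The mRNA library kit does not capture mature miRNAs, so the values are of reads over the gene. Its mature forms are shown to identify the miRNA, with the seed (bases 2 to 8) in capitals, from RefSeq's GRCm38.p6 annotation at chr3:122293615-122293634 and chr3:122293649-122293671 on the minus strand.
mmu-miR-760-3p: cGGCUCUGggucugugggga
mmu-miR-760-5p: cCCCUCAGgccaccagagcccgg

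In a further pattern a fall with polyIC alone was absent when the antibody was added. Ier3, an immediate early gene, was 10.9, 15.4 and 11.5 FPKM in control, 3.87, 4.94 and 3.94 with polyIC, 13.2, 17.4 and 7.76 with the antibody and 11.3, 13.7 and 11.1 with both. The polyIC libraries lay below all others and the remaining groups overlapped. Ier3 fell with polyIC by a log2 change of -1.37 (limma adjusted p = 0.015) and was higher with both agents than with polyIC by 1.31 (adjusted p = 0.0374), with a contrast of 1.35 (0.59 to 2.10, adjusted p = 0.999). Csf2rb2, which encodes a receptor chain for IL-3, showed the same order, with 13, 18.3 and 11.5 FPKM with polyIC, 28.2, 24.5 and 26.2 with both and a contrast of 1.05 (0.48 to 1.61).

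**Figure D4:**
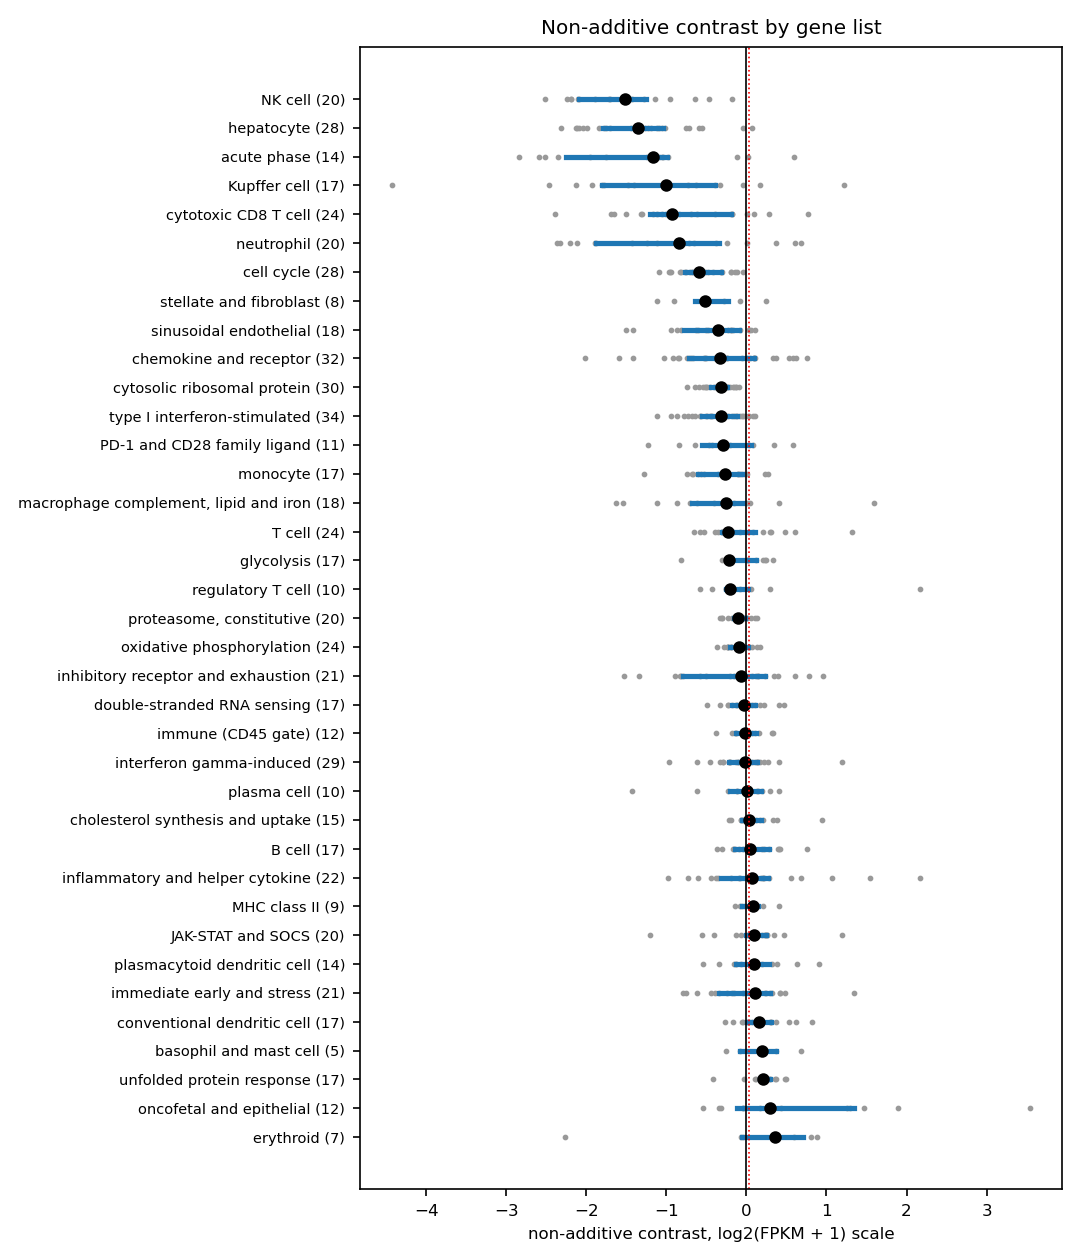
Non-additive contrast of the tested members (grey points) of 37 gene lists with at least 5 tested members, with the median (black) and the range between the quartiles (blue), on the log2(FPKM + 1) scale. The number of members stands in parentheses, the solid line marks 0 and the dotted red line the median of all tested genes, 0.03. NK cell genes have the lowest median, -1.52.

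All 28 tested cell cycle genes had their highest mean with both agents and a contrast below 0, beside 39.1% and 45.6% of all genes. Of the 28, 0 passed the test between both agents and either one alone. The contrasts had a median of -0.59, with 1 at an unadjusted p under 0.05 (1.51% of all genes) and 0 past the adjusted threshold. Against control 8 rose with polyIC, 0 with the antibody and 25 with both, beside 2.46%, 0.00835% and 13.1% of all genes, and the median changes were 1.14, 1.07 and 1.62. Kif11, a motor protein gene of the mitotic spindle, was 4.94, 5.4 and 4.7 FPKM in control, 23.9, 18 and 17 with polyIC, 18.7, 16.7 and 8.24 with the antibody and 21.8, 30.2 and 24.4 with both, a contrast of -0.94 (-1.74 to -0.13). All treated libraries were above control, the polyIC libraries overlapped with both other treated groups, and the antiPDL1 libraries lay below those of the combination. This list depended on single libraries, since 22 members had an unadjusted p under 0.05 without antiPDL1 replicate 2 (median -1.03), 0 without antiPDL1 replicate 1 (median -0.31), antiPDL1 replicate 0 (-0.39), combination replicate 0 or polyIC replicate 0 (-0.39), and 2 without polyIC replicate 1. The 30 ribosomal protein genes were also all below 0 (45.6% of all genes), at a median of -0.32, with 0 at an unadjusted p under 0.05. With 1 library left out that median ran from -0.56 (without antiPDL1 replicate 2) to -0.09 (without control replicate 0), and up to 7 had such a p.

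Most hepatocyte markers had contrasts below 0, with 0 past the adjusted threshold. Of 28 tested members 27 had a contrast below 0 (45.6% of all genes) and 5 of these an unadjusted p under 0.05 (1.51%), with a median of -1.36. The median changes were -0.09 with polyIC, -1.33 with the antibody and -2.76 with both, and 24 fell with both agents while 0 fell with either alone, beside 16.3% of all genes with both, 1.17% with polyIC and 0.259% with the antibody. Hpx, the gene of hemopexin, was 120, 122 and 48.6 FPKM in control, 131, 177 and 161 with polyIC, 79.1, 40.9 and 97.3 with the antibody and 13.8, 35 and 38.6 with both, a contrast of -2.11 (-3.52 to -0.71). These values rested on single libraries, and the list median was -0.77 without control replicate 2, -0.82 without antiPDL1 replicate 2, -1.96 with 22 genes at an unadjusted p under 0.05 without antiPDL1 replicate 1, and -0.28 without control replicate 2 and antiPDL1 replicate 2 together. The number at an unadjusted p under 0.05 was 12 without control replicate 0 and between 1 and 3 without combination replicate 0 or 1 or any 1 polyIC library. Alb, the albumin gene, was at -1.27 (-3.29 to 0.75) and at 0.06 without those 2 libraries together.

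Most Kupffer cell genes also had contrasts below 0. Their median changes against control were -1.17 with polyIC, -0.61 with the antibody and -3.27 with both. With both agents 11 of the 17 tested passed the adjusted threshold as lower (16.3% of all genes did). With either agent alone 0 passed as lower (1.17% with polyIC and 0.259% with the antibody), although both medians were below 0. The median contrast was -1.01, with 15 below 0 (45.6% of all genes) and 1 of these at an unadjusted p under 0.05 (1.51%). The gene with that p, Marco, which encodes a scavenger receptor, was 167, 137 and 27.6 FPKM in control, 107, 436 and 332 with polyIC, 75.1, 465 and 449 with the antibody and 81.7, 15.8 and 26.1 with both. The first 3 groups spread widely and overlapped, the combination libraries were low, and the contrast was -4.43 (-7.22 to -1.64, limma adjusted p = 0.999). Clec4f and Vsig4, defining genes of these cells, had -2.46 (-5.37 to 0.45) and -2.13 (-4.89 to 0.62), and on the linear FPKM scale 1106 and 246, so their sign depends on the scale. The list median was -0.35 without control replicate 2, -0.54 without antiPDL1 replicate 2, -1.51 with 8 genes at an unadjusted p under 0.05 without antiPDL1 replicate 0, -1.42 with 3 such genes without polyIC replicate 0 and with 2 without control replicate 1, and 0.09 without control replicate 2 and antiPDL1 replicate 2 together.

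B cell genes fell with both agents, and their median contrast was small but moved with single libraries. The median changes of the 17 tested members were -0.98 with polyIC, -1.18 with the antibody and -2.20 with both, which left a median contrast of 0.04, with 10 above and 7 below 0 and 0 at an unadjusted p under 0.05. The median contrast was -0.30 without antiPDL1 replicate 0 and 0.29 without antiPDL1 replicate 2, it changed sign in 5 of 12 such fits, and between 1 and 14 members were below 0. With both agents 16 of the 17 fell, beside 16.3% of all genes, and 0 fell with either agent alone, beside 1.17% with polyIC and 0.259% with the antibody. Cd79a, part of the B cell receptor, was 83.6, 103 and 235 FPKM in control and 32.5, 11.9 and 20.8 with both, against an expectation of 21.5, and its contrast was -0.10 (-1.49 to 1.30). That interval is wide, so a departure of 1 log2 unit in this gene is not shown to be absent.

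**Figure D5:**
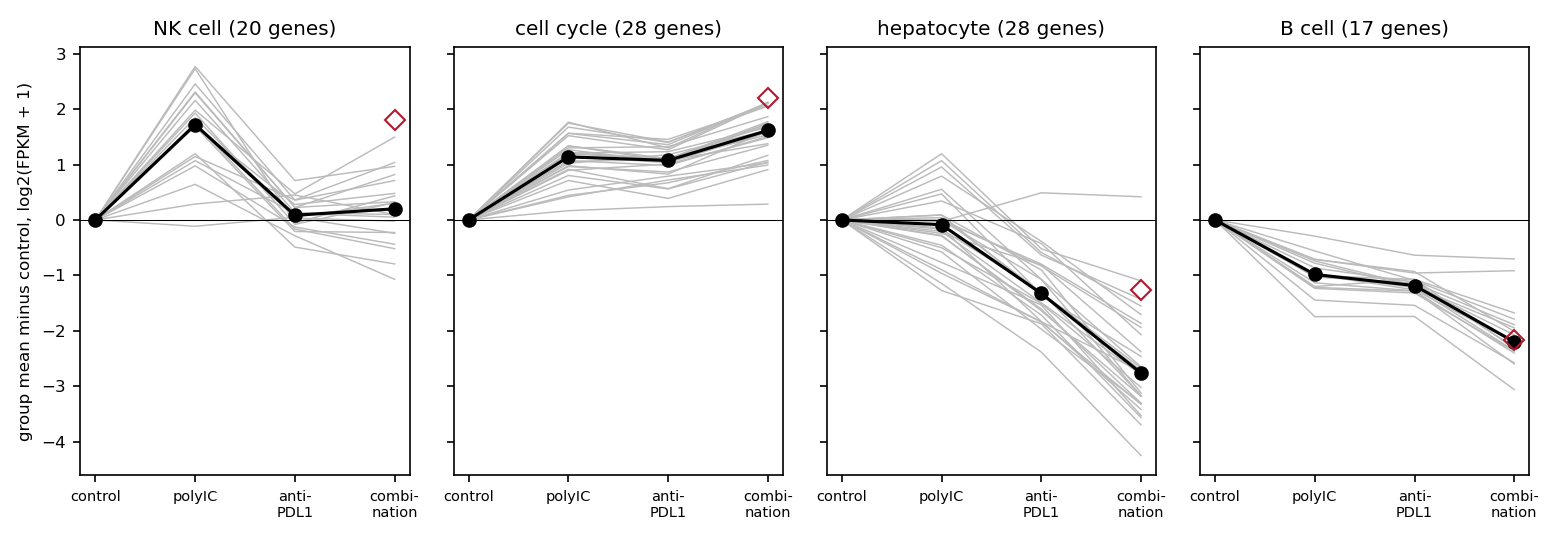
Group mean minus control on the log2(FPKM + 1) scale for the members of 4 gene lists (grey lines), with their median (black) and the median additive expectation for the combination (red diamond). The combination lies under the expectation for NK cell, cell cycle and hepatocyte genes and close to it for B cell genes.

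Interferon-stimulated genes, known targets of polyIC, had median contrasts that moved with single libraries. Of 34 tested type I interferon-stimulated genes 30 were below 0 (45.6% of all genes), at a median of -0.32. At an unadjusted p under 0.05 there was 1 (1.51% of all genes), Rsad2, an antiviral enzyme gene, at -1.12. The list's median changes were -0.04 with polyIC, 0.48 with the antibody and 0.01 with both. With polyIC 0 of the 34 rose or fell, beside 2.46% and 1.17% of all genes. The list median was -0.05 without antiPDL1 replicate 1, -0.07 without control replicate 2 and -0.63 with 13 genes at an unadjusted p under 0.05 without antiPDL1 replicate 2. The 29 interferon gamma-induced genes had a median of -0.02, which was -0.55 without antiPDL1 replicate 2 and 0.30 without antiPDL1 replicate 1, with up to 8 genes below expectation at an unadjusted p under 0.05. The 17 genes of double-stranded RNA sensing had -0.03 (-0.08 to 0.15 with 1 library left out). Tlr3, the endosomal receptor of polyIC, was at -0.22 (-1.34 to 0.89), Cd274, which encodes PD-L1 itself, at -0.20 (-1.30 to 0.89), and Cxcl9, a chemokine gene induced by interferon gamma, at 0.07 (-1.54 to 1.67). Ptprc was at -0.18 (-0.73 to 0.37), and the 12 immune genes of the CD45 gate were divided 6 to 6 around 0 with a median of -0.02 (-0.19 to 0.16 with 1 library left out).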

How the data were processed

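The deposited table gives 1 value per gene symbol and library. The authors made it with Cuffdiff on mouse build mm9, per the submitters' processing notes, and its unit, which the table does not name, was taken from the values to be FPKM. The sources used here do not give its aligner, annotation, Cuffdiff version or library scaling.

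From log2(FPKM + 1), with a pseudocount of 1, all contrasts came from 1 limma-trend fit over 12 libraries with group as the only term (limma 3.58.1, R 4.3.3, two-sided moderated tests, Benjamini-Hochberg over 11978 genes). Tables were made with Python 3.11.15, numpy 2.4.6 and pandas 2.3.3. The code was tested on simulated data. Fold changes on this scale understate those of low genes. The 27 symbols that a spreadsheet had turned into dates stayed under those names.

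Leaving out predicted genes, small RNAs, antigen receptor segments and dates, the rule named genes past the adjusted threshold, filled to 10 in each direction by unadjusted p (those filled in did not pass), the member of each list with the smallest unadjusted p, and a panel of 25 genes. Of the genes so named, 2 are not reported here. Mir760, Orm1, Ncr1, Klrb1c, Gzma, Prtn3 and further list members given without intervals were chosen after their values were seen. The genes, lists and alternatives were chosen with earlier results of these data known, and lists were described without a test. Without read counts, depth was estimated only relative to other libraries, from the steps between low values (60 of 66 library pairs).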

Additional observations from a re-analysis of the deposited data

Results flagged for a closer look

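Orm2 and Mir760 are given here because the contrast, the difference between the antibody's effect with and without polyIC, passed the adjusted threshold. For Orm2 the contrast was -2.35, with an antibody effect of 0.32 without polyIC and -2.03 with it. For Mir760 it was 3.04, with an effect of -3.04 without polyIC and 0 with it, since this gene is listed at 0 in all libraries but those of control. Its contrast is therefore its control level and does not tell whether the antibody's effect differs with polyIC. No group had more than 3 libraries, so outlying libraries were not tested for.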

How the results depend on the processing

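The count of genes past the adjusted threshold was 2 (1 higher, 1 lower) in the fit described, and it was 0 with a pseudocount of 0.1 or with a filter on a mean FPKM of at least 5, with 306 and 177 genes at an unadjusted p under 0.05. The means of Orm2 and Mir760 are below 5, so that filter removed both before the test and does not bear on their calls. Without a filter 2 passed above and 1 below the expectation (Gm5741, Lhfpl1 and Mir760). Array quality weights gave 12 genes (4 higher, 8 lower) and 1224 genes at an unadjusted p under 0.05. Keeping the failed estimates gave 12, of which 11 were lower. Leaving out control replicate 2 and antiPDL1 replicate 2 together gave 5, of which 4 were lower (Chil3, Gbp10, Gpr141, Gzma, with Mir760 higher), and 1337 genes had an unadjusted p under 0.05. Quantile normalization and median-of-ratios rescaling called Orm2 and Mir760 as before, with 245 higher and 198 lower genes, and 127 higher and 215 lower genes, at an unadjusted p under 0.05. With 1 library left out, between 0 and 5 genes passed (0 to 4 higher, 0 to 1 lower). There were 5 without control replicate 0 (Orm2, Mir760, Cdkn2b, Itga3 and Sprr1a), Mir760 alone without control replicate 1 or 2, Orm2 alone without polyIC replicate 2 and 0 without any of the other 8. The adjusted p of Orm2 was 0.156 with a pseudocount of 0.1, 0.0954 without a filter, and 0.0307 to 0.236 with 1 library left out. That of Mir760 was 0.0747 with a pseudocount of 0.1.

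The replicate block (the replicate number as a fixed term) gave 3 genes, 1 higher and 2 lower, adding Klra19, and 365 at an unadjusted p under 0.05. The numbers were not treated as pairs, because in 18 same-numbered pairs the correlation of deviations from the group means ran from -0.294 to 0.321, with 4 over 0.1, and 5 of 12 libraries were closest to their own number.

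Over 1721 values of 79 named genes under the alternatives, 1686 kept their sign. On the linear FPKM scale the sign reversed for Clec1b (8.99), Gzmb (252), Gzmk (189), Prf1 (27.1), Pdcd1 (41.8), Ctla4 (48.4), Clec4f (1106), Vsig4 (246) and Cd79a (52.7). With array quality weights it reversed for Cxcl9 (-0.50) and Siglech (-0.13), and without control replicate 2 and antiPDL1 replicate 2 for Cxcl9 (-0.45), Tlr3 (0.05) and Alb (0.06, against -1.96 to -0.46 with 1 library left out). With 1 library left out the ranges crossed 0 for Prf1 (-0.62 to 0.14, and -0.97 without both of those libraries), Ctla4 (-1.07 to 0.24), Cd274 (-0.70 to 0.07), Cxcl9 (-0.58 to 0.71), Isg15 (-1.45 to 0.09), Tlr3 (-0.59 to 0.08), Cd79a (-0.54 to 0.26) and Siglech (-0.44 to 0.63). Of 37 list medians 17 kept their sign in all 12 such fits. The causes of these changes were not tested. With 3 libraries per group and an unknown absolute depth, neither low FPKM values nor values listed at 0 carry a counting error here.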

Other observations

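Chemokine and chemokine receptor genes, not described above, had a median contrast of -0.33 over 32 tested members. At an unadjusted p under 0.05, 3 were below expectation (1.51% of all genes) and 0 above (0.893%). Ccl9, a chemokine gene of myeloid cells, was 24, 31.8 and 40.6 FPKM in control, 62, 76.2 and 70.3 with polyIC, 152, 65.6 and 38.7 with the antibody and 45, 55.3 and 57.2 with both, a contrast of -1.59 (-2.79 to -0.40, limma adjusted p = 0.999). The antiPDL1 libraries spread from within the control range to above every other library. Conventional dendritic cell genes had a median of 0.16 over 17 members, which ran from -0.03 without combination replicate 0 to 0.46 without combination replicate 1. Of these genes 6 fell with polyIC alone, 0 with the antibody alone and 11 with both, beside 1.17%, 0.259% and 16.3% of all tested genes. Genes of the unfolded protein response were above expectation in 15 of 17, at a median of 0.21. That median was 0.02 without antiPDL1 replicate 2 and 0.41 without combination replicate 2, and between 1 and 8 members were below 0. Atf6, a sensor gene of that response, had a contrast of 0.50 (0.08 to 0.92). Atf6 was 22.8, 24.4 and 20 FPKM with both agents and at most 19 in the other 9 libraries. Fgl1, the gene of a hepatocyte protein that binds the inhibitory receptor LAG-3, was 6.24, 9.65 and 8.66 FPKM with polyIC and 0.81, 1.8 and 1.84 with both, a contrast of -1.23 (-2.04 to -0.42).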
